A study of Arabidopsis thaliana with 6 samples.

Results

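A set of 116 nuclear genes had higher signals on the arrays of wild type 1 and mutant 2 than on those of wild type 2 and mutant 1, a pattern that cuts across the genotypes. Signals were floored at 0 and taken as log2(value + 16). A gene belonged to the set when its probe set named 1 gene, its mean signal over the 6 arrays was 100 or more, the lower value of the high pair lay above the higher value of the low pair, and the pair means differed by 0.7 or more on the log2 scale. Of 13513 genes with a probe set of their own, 6207 were nuclear and reached that mean signal, and 127 of these (2.05%) met the rule. COR47, LTI30, AT1G62660 and a further 8 genes met it too and were left out beforehand, which gave the 116. The values of wild type 1 and 2 and mutant 1 and 2 chose the members, so the gap between the pairs is a description and was not tested. Wild type 3 and mutant 3 took no part in the choice beyond the mean signal. Wild type 1 and mutant 2 are called the high pair, wild type 2 and mutant 1 the low pair, and wild type 3 and mutant 3 the third arrays, and intensities are given in that order.

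RNA came from whole seedlings of Arabidopsis thaliana ecotype Col-0, aged 15 days, and was hybridised to Affymetrix arrays. The source, tissue and protocol labels name seedlings and were followed here, while the description labels speak of embryos. Wild type and the gapcp1gapcp2 double mutant, which lacks the plastid-localised glycolytic enzyme GAPCp (a glyceraldehyde-3-phosphate dehydrogenase), had 3 arrays each, titled as biological replicates. All seedlings of both genotypes had received 0.75 µM abscisic acid (ABA), a hormone of stress responses and dormancy, for 8 days, so no untreated plants were compared. They were kept under 16 h of light at 100 µmol/m²/s and 8 h of dark, at 22 °C. The labels name neither the mutant alleles nor the number of seedlings per array, and the targeted genes GAPCP1 and GAPCP2, not analysed here because the probe table used does not name them, did not check the labels. Each array held 22746 probe sets, array medians ran from 105.8 to 113.0, and 395 to 785 values per array lay below 0.

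Among the members that carry a gene name, several act in the plant cell wall. Expansins loosen the wall, glycosyl hydrolases of family 9 cut cellulose-like glucans, extensin-type hydroxyproline-rich glycoproteins form a protein network in it, and class III peroxidases of the apoplast both cross-link and loosen its polymers. Such genes are known from growing root cells and root hairs, and whole seedlings mix root and shoot. Others act in defence, conjugation of small molecules, autophagy and sulphate assimilation. A name or synonym was found in the tables for 26 members, and the other 90 are known here by their locus tag only, with no role given.

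The arrays themselves did not group by genotype, also with the probe sets that met the rule left out. Probe sets with the same split below the rule's limits stayed in, so the pattern was not fully removed. With every probe set that met the rule in either direction left out, arrays were compared by how widely their log2 differences scattered over the remaining 15479 probe sets. The SD was lowest between wild type 1 and mutant 3 (0.225), followed by the low pair (0.240). It was highest between wild type 2 and mutant 2 (0.345), followed by mutant 1 and mutant 2 (0.341). The high pair stood at 0.274, and wild type 1 and wild type 2 at 0.289.

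Over the 116 genes, the median log2 deviation from each gene's 6-array mean was 0.51 in wild type 1 and 0.42 in mutant 2, against -0.50 in wild type 2 and -0.53 in mutant 1. Wild type 3 (0.046) and mutant 3 (0.14) lay between. Over all 6207 nuclear genes the same medians stayed within -0.046 to 0.034. The difference between the pair means ran from 0.70 to 1.96 on the log2 scale, with a median of 0.95, and was 1 or more in 49 members. Within the high pair the arrays differed by a median of 0.16 in either direction, and within the low pair likewise by 0.16, against 0.96 between wild type 1 and 2 and 0.95 between mutant 1 and 2 for the same genes. The wide differences inside each genotype follow from the rule. Over all nuclear genes the medians were 0.13 within the high pair and 0.11 within the low pair. They were 0.15 between wild type 1 and 2 and 0.18 between mutant 1 and 2. Mutant 2 was above wild type 1 in 48 members (41.4%, 35.9% of all nuclear genes) and mutant 1 above wild type 2 in 47 (40.5%, 43.7% of all). Both shares lay within a few percentage points of their background.

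**Figure D1:**
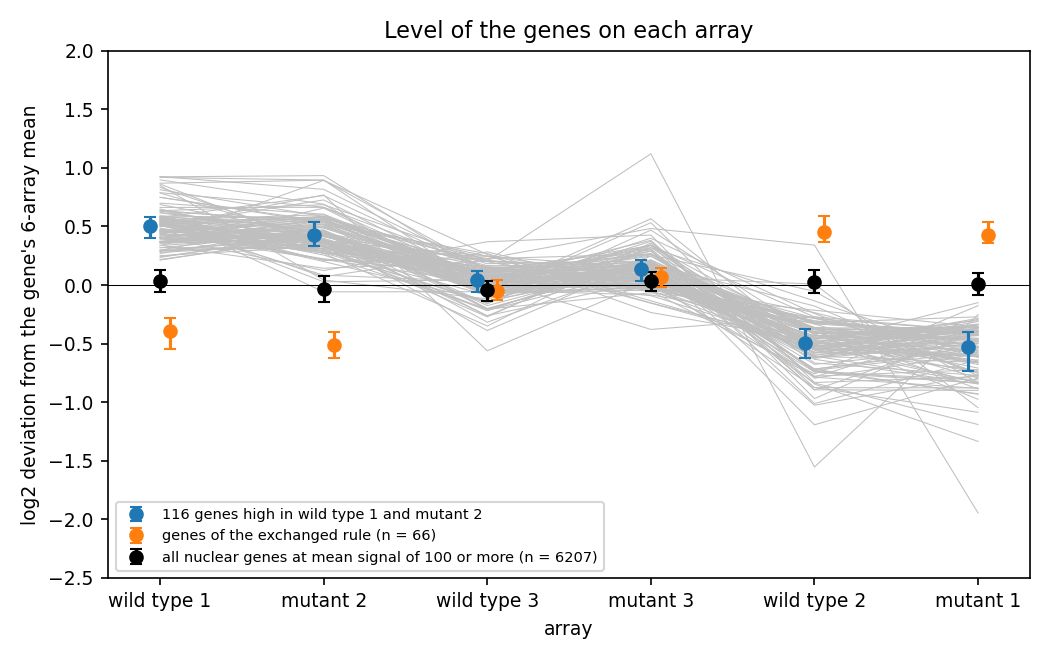
Log2 deviation of each gene from its own mean over the 6 arrays (vertical axis) on each array (horizontal axis). Grey lines join the values of 1 gene of the set, and points with bars give medians and quartiles over the 116 genes, the 66 genes of the exchanged rule and all 6207 nuclear genes. Wild type 1 and mutant 2 are high and wild type 2 and mutant 1 low by the choice of the genes, while wild type 3 and mutant 3, with medians of 0.046 and 0.14, lie between.

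The widest gaps belonged to genes known by locus tag only. AT4G33720 read 239 and 220.3 in the high pair, 58.7 and 37.2 in the low pair, and 131 and 150.2 on the third arrays. AT2G37750 read 860.1 and 866 in the high pair, 236 and 201 in the low pair, and 471 and 455 on the third arrays. In both genes the high arrays stood 3.89-fold and 3.76-fold above the low ones on the log2(value + 16) scale, with the third arrays between them. AT1G70880 read 216 and 213 in the high pair, 37.7 and 54.8 in the low pair, and 104 and 126 on the third arrays. AT3G22570 read 309 and 315 in the high pair, 83.7 and 62.0 in the low pair, and 179 and 179.6 on the third arrays. All 4 thus have nearly equal signals in wild type 1 and mutant 2, although these differ in genotype.

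The next 6 by the size of the gap were AT4G30670, AT1G72230, AT5G04960, AT1G49310, AT1G12080 and AT2G15220, at 3.23-fold to 2.77-fold. AT5G04960 shows how closely the pairs can match, with 162 in wild type 1 and 162 in mutant 2, and 45.3 in wild type 2 and 45.2 in mutant 1. Its other arrays had 100.3 in wild type 3 and 131 in mutant 3. In none of the 10 genes with the widest gaps did wild type 3 or mutant 3 reach either pair.

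At the threshold itself, AT5G09480 (0.706) and EXPB3 (0.704) lay just inside and AT1G72700 (0.699) and AT4G17215 (0.697) just outside. The rule fixes the difference of pair means, not the space between the nearest arrays, which had a median of 0.77 and was 0.7 or more in 70 members. That space was under 0.2 in 2 members, AT3G45730 (0.039) and AT2G40800 (0.14). AT3G45730 read 144 and 129.6 in the high pair, 126 and 13.0 in the low pair, and 115 and 140.4 on the third arrays, so mutant 1 alone is low.

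The wall proteins and wall-cutting enzymes count 6 named members, and among the roles they had the widest range of mutant 3 minus wild type 3 (-0.50 to 0.92). EXPA18, an expansin of root hairs, read 177 and 256 in the high pair, 89.1 and 66.1 in the low pair, and 159.7 and 109 on the third arrays. EXPB3, a beta-expansin, read 521 and 598 in the high pair, 330.3 and 343 in the low pair, and 468 and 471 on the third arrays. Wild type 3 and mutant 3 were nearly equal for EXPB3, while for EXPA18 wild type 3 was the higher, by 0.50 on the log2 scale. HRGP1, a hydroxyproline-rich glycoprotein, read 364 and 315 in the high pair, 86.2 and 236 in the low pair, and 329.5 and 636 on the third arrays. Mutant 3 was its highest array, above the high pair, and the gap of mutant 3 over wild type 3 (0.92) was the only one of 116 that reached 0.7 (0.862%, against 1.03% of all nuclear genes). The probe set of HRGP1 carries the suffix _x_at, a type that can share signal with related genes. Its values may therefore not be those of HRGP1 alone.

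Of the family 9 glycosyl hydrolases, GH9C1 read 141 and 142 in the high pair, 70.0 and 80.8 in the low pair, and 129 and 93.8 on the third arrays. GH9B13 read 708 and 653 in the high pair, 359 and 417 in the low pair, and 477 and 677 on the third arrays. These ran in opposite ways on the unused arrays, with wild type 3 higher for GH9C1 (by 0.40) and mutant 3 higher for GH9B13 (by 0.49). GH9B8 read 164 and 174 in the high pair, 86.7 and 106 in the low pair, and 139 and 163 on the third arrays, with mutant 3 the higher by 0.21. Of 5 genes of this family with a mean signal of 100 or more, 3 are members, and the other two, GH9B7 and GH9C2, also had pair differences above 0 with a median of 0.26. Over all nuclear genes of that mean signal, 46.5% had a pair difference above 0.

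A group of 3 named peroxidase genes and a regulator of peroxidases shared the split into high and low arrays that the rule fixes, and differed in the order inside each pair. PRX25 read 226 and 252 in the high pair, 91.7 and 104 in the low pair, and 173 and 187 on the third arrays. PRX71 read 324 and 277 in the high pair, 167 and 188 in the low pair, and 238 and 253 on the third arrays. Both have wild type 3 and mutant 3 between the pairs and within 0.11 of each other. Prx37 read 148 and 131 in the high pair, 98.0 and 38.9 in the low pair, and 103 and 103 on the third arrays, so its low pair was far apart. UPB1 encodes UPBEAT1, a transcription factor that represses peroxidase genes at the root's transition from division to elongation, and read 188 and 166 in the high pair, 77.2 and 66.6 in the low pair, and 142 and 129 on the third arrays. The repressor and the peroxidases are high on the same arrays by the rule that chose them. PRX72 (AT5G66390), left out beforehand, read 344 and 339 in the high pair, 184 and 157 in the low pair, and 265 and 243 on the third arrays. The count of 3 peroxidases covers named members only, not genes left out beforehand or known by locus tag alone.

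Another 4 named members act in growth signals, cell shape and the cell cycle, and for all 4 mutant 3 was higher than wild type 3, as it was for 66.0% of all nuclear genes. RALFL32, of the RALF family of secreted signal peptides, read 632 and 680.0 in the high pair, 322 and 322 in the low pair, and 397 and 538 on the third arrays. SBT4.12, a subtilisin-like protease, read 314 and 280.0 in the high pair, 118 and 132 in the low pair, and 196 and 223 on the third arrays. SP1L2, related to the microtubule protein SPIRAL1, read 122 and 156 in the high pair, 42.6 and 66.1 in the low pair, and 91.1 and 122 on the third arrays. The most uneven was SIM (SIAMESE), an inhibitor of cyclin-dependent kinases that promotes endoreduplication, with 209, 112 and 105 in wild type and 91.4, 170.4 and 179 in the mutant. Its wild type 3 lay with the low pair and its mutant 3 with the high pair. Mutant 3 minus wild type 3 ran from 0.18 to 0.69 in these 4 genes and stayed above 0 under all 3 scalings and both other added constants, with 1 array per genotype and therefore no test. Relatives were not all members: of 6 RALF-like genes with a mean signal of 100 or more, 1 is a member and the other 5 had a median pair difference of 0.070.

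FACT, an acyltransferase that makes caffeoyl esters of fatty alcohols for root waxes, read 584 and 702 in the high pair, 373 and 355 in the low pair, and 457 and 444 on the third arrays. The genotypes overlapped, with the third arrays just below the midpoint of the pairs (wild type 3 just above it with quantile normalization).

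Among the named members, 3 encode defence proteins. CHI, here a chitinase, read 303 and 301 in the high pair, 144 and 159 in the low pair, and 204 and 221 on the third arrays. OSM34, an osmotin-like protein of salt and pathogen responses, read 2493 and 2744 in the high pair, 1494 and 1525 in the low pair, and 1912 and 2130.1 on the third arrays. LCR68, a cysteine-rich peptide of the plant defensin group, read 3327 and 3290.5 in the high pair, 1735 and 1833 in the low pair, and 2303 and 2560.4 on the third arrays. The arrays of the high pair were within a few percent of each other for CHI and LCR68, and mutant 3 was slightly above wild type 3 in all 3 genes, by 0.11 to 0.15, where the median over all nuclear genes was 0.078 and 66.0% were above 0. With quantile normalization the 3 differences ran from 0.029 to 0.093 and with median centring from 0.037 to 0.081. Of 5 genes named as defensins or LCR peptides with a mean signal of 100 or more, 1 is a member. Among the other 4, 3 had pair differences above 0 (46.5% of all nuclear genes).

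Conjugating enzymes gave 3 named members out of large families. UGT71C1, a glycosyltransferase of phenolic compounds, read 189 and 159 in the high pair, 86.2 and 53.4 in the low pair, and 131 and 156 on the third arrays. UGT76B1, which glycosylates salicylic acid and isoleucic acid, read 265 and 247 in the high pair, 134 and 143 in the low pair, and 184 and 190.5 on the third arrays. GSTU22, a tau class glutathione transferase, read 525 and 544 in the high pair, 305 and 306 in the low pair, and 378 and 391 on the third arrays. Among relatives with a mean signal of 100 or more, 13 of the 25 other UGT genes had pair differences above 0 (median 0.0031), near the 46.5% of all nuclear genes, and 2 of the 7 other tau class genes did (median -0.21).

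Autophagy was represented by ATG8H and APG8A (ATG8A), ubiquitin-like proteins that are attached to the autophagosome membrane. ATG8H read 246 and 225 in the high pair, 134 and 103 in the low pair, and 166 and 165 on the third arrays. APG8A read 809.9 and 725 in the high pair, 428 and 397 in the low pair, and 544 and 558 on the third arrays. For both, wild type 3 and mutant 3 were nearly equal and just below the midpoint of the pairs. With quantile or 75th-percentile scaling wild type 3 lay above it for both genes, and with median centring for 1. Of 8 ATG8 genes with a mean signal of 100 or more, only these 2 met the rule, and the other 6 had a median pair difference of -0.019.

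The last named members act in plastids or in cold responses. APS4, an ATP sulfurylase, the enzyme that activates sulphate, read 1205 and 1253 in the high pair, 477 and 496 in the low pair, and 944 and 959 on the third arrays. Its relative APS3 had a pair difference of -0.024. SAPX, a stromal ascorbate peroxidase that removes hydrogen peroxide, read 755 and 892 in the high pair, 413 and 469 in the low pair, and 663 and 681 on the third arrays. COR27, a cold-regulated gene linked to the clock, read 567 and 504 in the high pair, 291 and 295 in the low pair, and 411 and 425 on the third arrays. In the lists of cold response and of ABA response and dehydration, COR15A and STZ had pair differences of -0.64 each and COR15B of -0.013. LEA4-5, with a mean signal under 100, had 0.99. COR47 and LTI30, left out beforehand, had 0.87 and 0.96, and the clock gene GI had 0.19. For APS4, SAPX and COR27 wild type 3 and mutant 3 differed by no more than 0.048, and both lay above the midpoint.

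**Figure D2:**
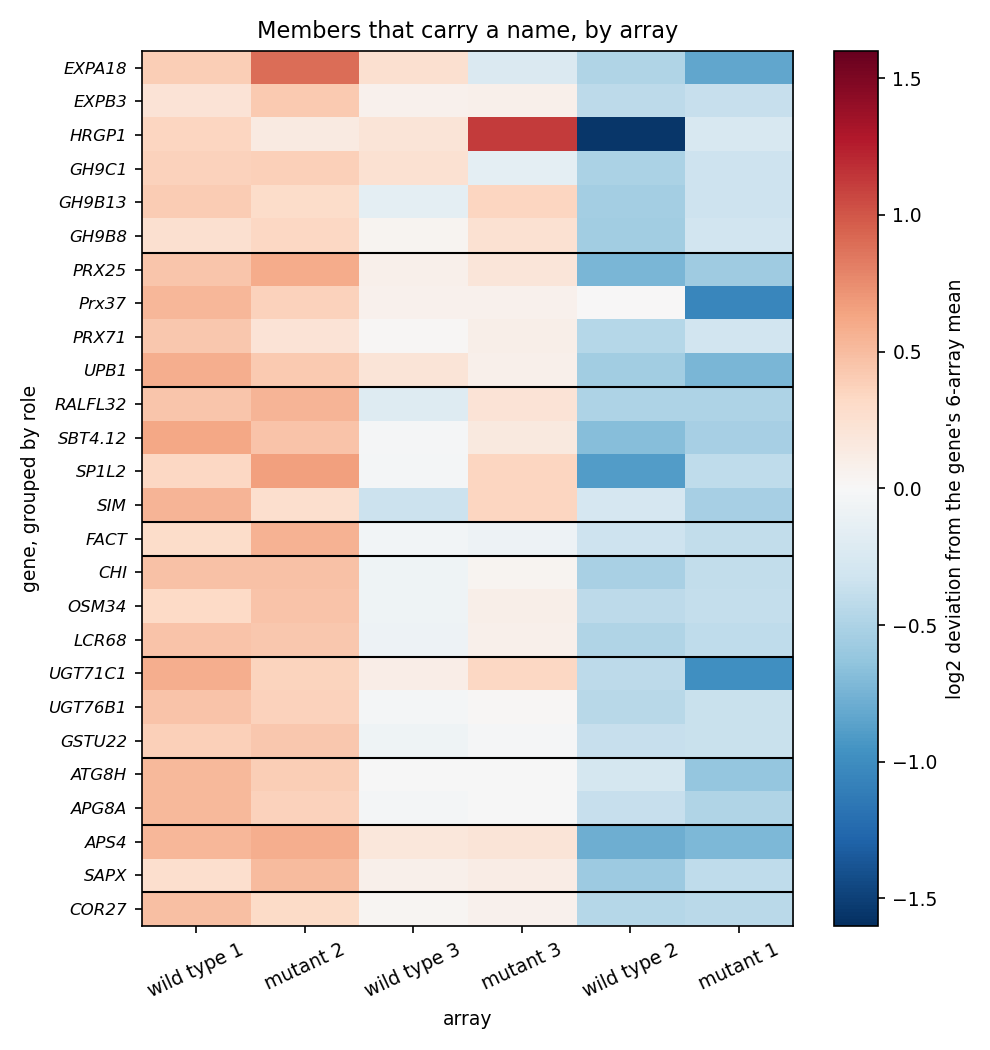
Log2 deviation from the gene's 6-array mean (colour) for the 26 members with a name (rows, grouped by role between the black lines) on the 6 arrays (columns). Wild type 1 and mutant 2 are red and wild type 2 and mutant 1 blue by the choice of the genes, with Prx37 near 0 in wild type 2, and HRGP1 stands out with its highest value (636) in mutant 3.

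Wild type 3 and mutant 3 lay between the pairs for most members. On a scale where 0 is the mean of the low pair and 1 that of the high pair, wild type 3 had a median position of 0.58 and mutant 3 of 0.66. Wild type 3 fell strictly between the pairs in 104 of 116 members, mutant 3 in 100 and both in 96 (82.8%). An intermediate position is also what the exchanged rule gave: of the 66 genes high in wild type 2 and mutant 1 (1.06% of the nuclear genes), 54 (81.8%) had both between, with median positions of 0.45 for wild type 3 and 0.56 for mutant 3.

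The midpoint of the pairs split the set by the unused arrays. Both were above it in 68 members, mutant 3 alone in 27, wild type 3 alone in 11 and neither in 10. Mutant 3 was above the midpoint in 95 (81.9%, against 56.9% of all nuclear genes) and wild type 3 in 79 (68.1%, against 36.9%). These shares are from unscaled values. With quantile normalization the counts were 91 for mutant 3 and 88 for wild type 3. With median centring they were 91 and 85, and with 75th-percentile centring 92 and 89. No shares over all nuclear genes stand beside these scaled counts. On the intensity scale, in place of log2, wild type 3 was above the midpoint in 46 members and mutant 3 in 79, so the count for wild type 3 depended on the scale. The shares over all nuclear genes were not computed on the intensity scale, so these counts have no background beside them. In the exchanged set, where the pairs are turned, the shares above the midpoint were 65.2% for mutant 3 and 36.4% for wild type 3. Mutant 3 was higher than wild type 3 in 79 members (68.1%), close to the 66.0% of all nuclear genes. With median centring it was higher in 57 of 116 members and in 51.1% of all nuclear genes, with 75th-percentile centring in 57 and 50.2%, and with quantile normalization in 55 and 48.7%.

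Members at the extremes of mutant 3 minus wild type 3 were HRGP1 (0.92), SIM (0.69), AT3G14280 (0.63) and AT1G18980 (0.63) above 0, and EXPA18 (-0.50), AT5G05600 (-0.43), AT2G47540 (-0.40) and GH9C1 (-0.40) below. AT1G18980 read 296 and 252 in the high pair, 123 and 152 in the low pair, and 161 and 257 on the third arrays. AT3G14280 read 187 and 201 in the high pair, 101 and 80.4 in the low pair, and 125 and 202 on the third arrays. In both, mutant 3 matched the high pair and wild type 3 lay nearer the low pair. AT5G05600 read 179.9 and 145 in the high pair, 88.3 and 80.0 in the low pair, and 115 and 80.8 on the third arrays, so that mutant 3 lay with the low pair.

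**Figure D3:**
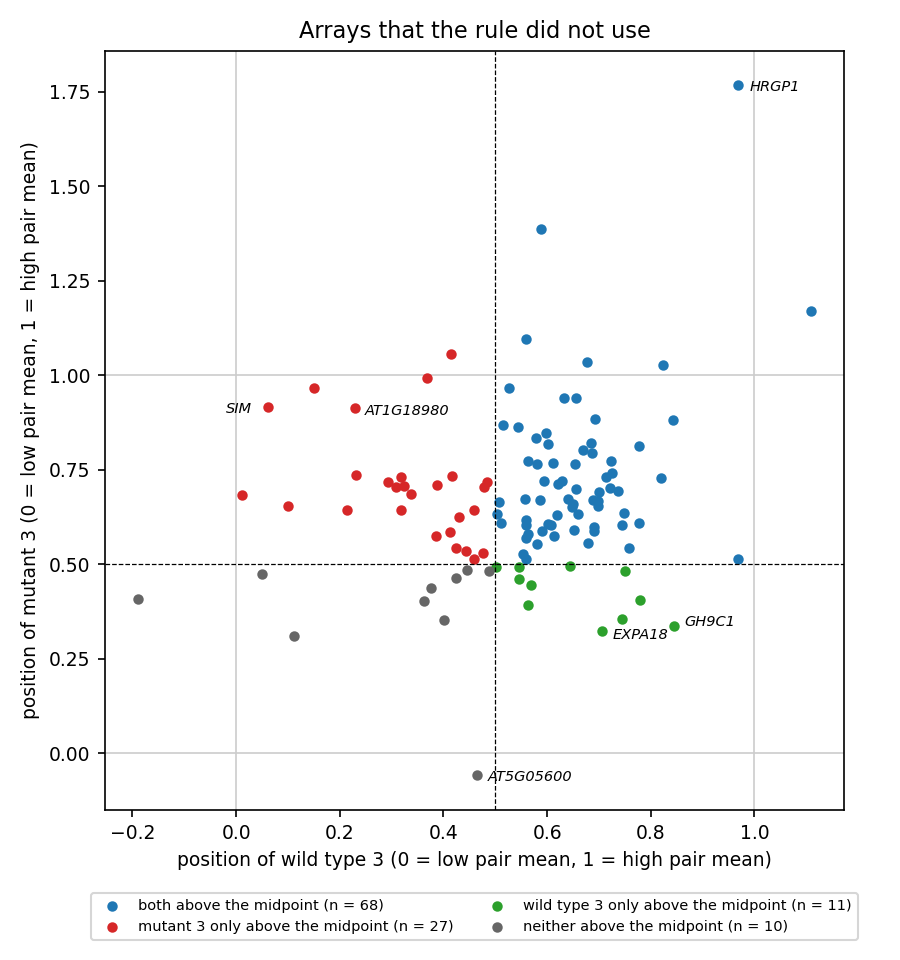
Position of wild type 3 (horizontal axis) and mutant 3 (vertical axis) for each of the 116 genes on a scale from the mean of the low pair (0) to the mean of the high pair (1), with dashed lines at the midpoint. Colours give the 68, 27, 11 and 10 genes by which of these arrays lies above the midpoint, and HRGP1 is the highest for mutant 3.

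Between the genotypes no member passed the test. With limma over all 15922 probe sets above the lowest 30%, 0 of 116 members had an adjusted p under 0.05 (0% of all tested, higher or lower) and 0 had an unadjusted p under 0.05 (1.70% of all tested). The smallest unadjusted p of a member was 0.216 and the smallest adjusted p 1.00. The median log2 difference, mutant minus wild type, was -0.0057 over the members and -0.0032 over all tested, with 58 members above 0 and 58 below. The rule itself makes it impossible for the mutant arrays of a member to lie all above or all below those of wild type. The rule asked for wide differences inside each genotype, in opposite directions, so members had large standard errors by choice (median 0.30, against 0.14 over all tested) and these counts say little about the genotypes.

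The smallest unadjusted p belonged to HRGP1, with a log2 difference, mutant minus wild type, of 0.67 ± 0.51 (SE). AT3G45730 followed with -0.72 ± 0.55 (SE), AT2G25460 with 0.31 ± 0.24 (SE) and Prx37 with -0.40 ± 0.33 (SE), and limma gave each an adjusted p of 1.00. AT2G25460 read 142 and 151 in the high pair, 70.8 and 94.8 in the low pair, and 82.7 and 122 on the third arrays. The genotypes overlap in all 4 genes. For AT3G45730 and Prx37 the sign rested on mutant 1, without which the differences were 0.070 and 0.018.

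The few root markers measured were higher in the high pair, and the shoot markers showed little difference between the pairs. Of 37 root markers listed, 4 were measured with a probe set of their own, EXPA7 and EXPA18 of root hairs and PYK10 and NAI2 of root ER bodies, and EXPA18 is itself a member. For the other 3, both arrays of the high pair were above both of the low pair, as for 24.9% of all nuclear genes with a mean signal of 100 or more. PYK10 read 6109 and 5514 in the high pair, 4383 and 4073 in the low pair, and 4649 and 4890 on the third arrays. EXPA7 read 101 and 75.3 in the high pair, 47.2 and 37.9 in the low pair, and 44.4 and 63.6 on the third arrays, and NAI2 read 1161 and 1278 in the high pair, 919.9 and 827 in the low pair, and 995 and 1102 on the third arrays. Without EXPA18, the 3 remaining markers summed to 7371 in wild type 1 and 6867 in mutant 2, to 6055 in mutant 3 and 5689 in wild type 3, and to 5350.5 in wild type 2 and 4938 in mutant 1. Most of this sum is PYK10. In PYK10 and NAI2 the third arrays lay between the pairs, while wild type 3 of EXPA7 lay below the low array wild type 2. Their pair differences (0.46 for PYK10, 0.47 for NAI2 and 0.82 for EXPA7) were under the rule's 0.7 for the first 2, and EXPA7 had a mean signal under 100.

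The 5 shoot markers measured of 23 listed, LHCB4.1, LHCB4.2, RCA, SBPASE and PSAE-1, had pair differences from -0.17 to 0.054. Their summed intensity ran from 36497 in mutant 2 to 39722 in wild type 1, so the high pair held both the lowest and the highest array. The 3 guard cell markers measured of 10 (FMA, SPCH and MUTE) summed to 149 in mutant 2, 156 in wild type 1 and 183 to 200.2 elsewhere, and gene by gene only MUTE was lowest on both arrays of the high pair. The pollen markers ANX1 and ANX2, 2 of 7 listed, summed to 71.5 or less on every array. The part that root content plays in the pattern was not tested. In such whole-seedling RNA, fewer cells of a type and less RNA per cell cannot be told apart.

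**Figure D4:**
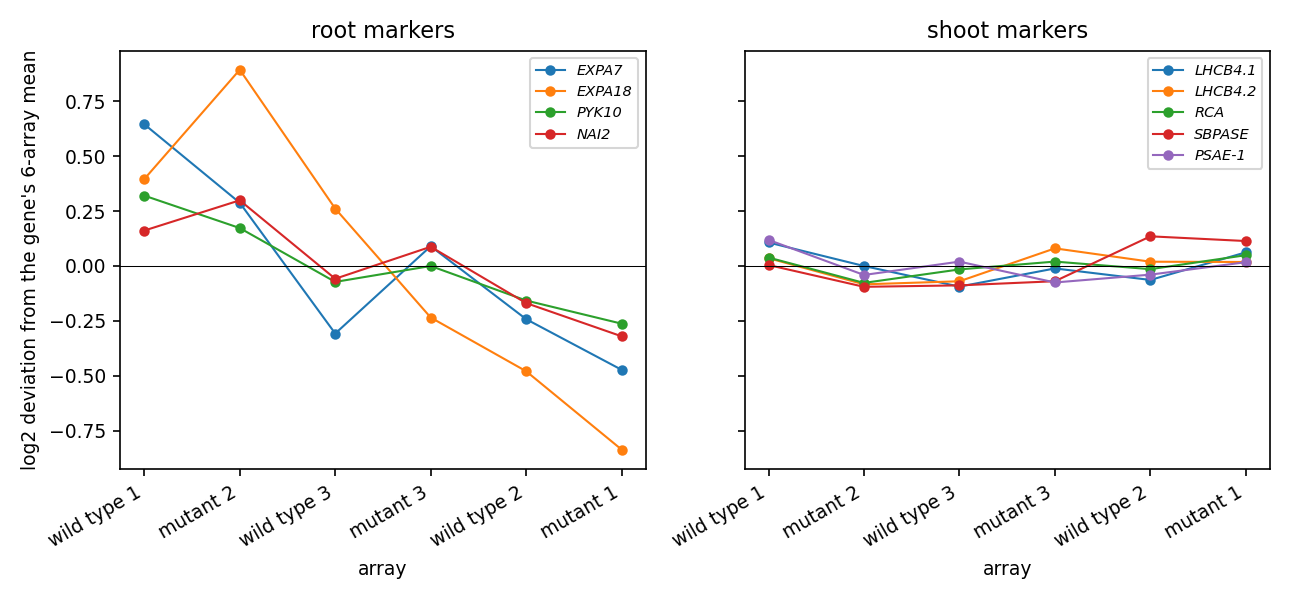
Log2 deviation from the gene's 6-array mean (vertical axis) of the 4 measured root markers and the 5 measured shoot markers on each array (horizontal axis), with lines joining the values of 1 gene. The root markers are higher in wild type 1 and mutant 2 than in wild type 2 and mutant 1, for EXPA18 by the rule, and the pair differences of the shoot markers stay within -0.17 to 0.054.

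Gene lists of processes were sparsely covered by the names in the probe table, which gave a probe set to 84 genes of 735 list entries. Of 26 lists, 20 had a measured gene and 3 held a member: root hair growth (EXPA18), expansins and xyloglucan enzymes (EXPB3) and clock (COR27). The 60 list genes with a mean signal of 100 or more had a median pair difference of -0.014, against -0.019 over all nuclear genes. In the list of expansins and xyloglucan enzymes, 5 of 12 genes with a mean signal of 100 or more had pair differences above 0, near the 46.5% of all nuclear genes, with a median of -0.13. Besides EXPB3, the high pair lay wholly above the low pair for EXPA4 (0.60), EXPA15 (0.55) and XTH18 (0.18), which fell short of the rule's difference. Over all nuclear genes, 24.9% had a high pair wholly above the low pair. EXLA1, an expansin-like gene, lay at -0.36, with its high pair wholly below its low pair. The same held for EXPA9 (-0.35), EXPA8 (-0.24), XTH19 (-0.23) and XTH16 (-0.14). No share over all nuclear genes stands beside this opposite direction. By family name, which takes in EXPA18, 6 of 11 expansins were above 0. In the list of protease inhibitors and storage proteins, which also holds PYK10 and NAI2, 6 of 7 were above 0 (46.5% of all nuclear genes) with a median of 0.46, and the jacalin lectin genes JAL33 and JAL34 had 0.60 and 0.54. The iron deficiency regulators BHLH101 and PYE ran the other way, at -2.52 and -1.31.

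Members lay on all 5 chromosomes, and their median length was below that of all nuclear genes. Chromosomes 1 to 5 held 22, 27, 23, 22 and 22 of them, or 19.0%, 23.3%, 19.8%, 19.0% and 19.0%. Of all nuclear genes they held 25.8%, 15.0%, 20.6%, 14.6% and 23.7%. With the left-out genes counted, 4 neighbouring couples stood within 5 protein-coding genes of each other, the closest being PRX71 (AT5G64120) and AT5G64100 with 1 gene between. Probe sets of closely related genes can share signal, which the files do not resolve. The genes' span in the RefSeq table had a median of 1528.5 bases, against 2338 for all nuclear genes of that mean signal, and their mean signal a median of 214, against 263. Unnamed probe sets showed the pattern at a like rate, 132 of 5342 (2.47%) with a mean signal of 100 or more.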

How the data were processed

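The authors deposited linear intensities, 1 value per probe set and array, made with GCOS (Affymetrix software) per the submitters' processing notes. How GCOS summarised, scaled and background-subtracted the probes, and its version, are not stated in the labels. Genes were named from the platform's probe table, updated by gene ID through a RefSeq table of TAIR10.1 (13436 of 13513 matched). A further 503 probe sets had several genes and 8730 were unnamed here.

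Intensities were floored at 0 and used as log2(value + 16) without further normalization. Genotypes were compared with limma 3.58.1 in R 4.3.3 (lmFit, eBayes with trend, two-sided, Benjamini-Hochberg over 15922 probe sets, the lowest 30% left out), checked on simulated data. P-values measure the spread between 3 arrays a genotype, whose number limits the precision. Arrays with the same number deviated in opposite ways (correlations of -0.59, -0.49 and -0.13), so the replicate number was not used as a pairing.

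The members and lists were chosen with earlier results of these data known. The text names the 10 members with the widest gap, up to 3 members per list, those at the threshold, the 4 with the smallest limma p, the 4 highest and 4 lowest in mutant 3 minus wild type 3, and, added later, all 26 members with a name. Up to 4 genes of any family with 4 or more members were also to be named. Families could be counted only over the 26 named members, where none had that many. Those among the 90 members known by locus tag only were not counted and may recur. Relatives of named members, by family name, were likewise looked up later. List names that the tables give to another gene (CHI, CCR2, FDH and PS2) were dropped. Alternatives were quantile, median and 75th-percentile scaling, added constants of 1 and 64, other filters, other limits of the rule, other variance models, the replicate block and leaving out each array. A planned count of promoter motifs was not made, and no sequences were used here. Figures were drawn with matplotlib 3.10.9.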

Additional observations from a re-analysis of the deposited data

How the results depend on the processing

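The intensity scale was an alternative chosen after seeing the data. The 116 members became 231 with a pair difference of 0.5 and 49 with 1.0, 180 at a mean signal of 50 and 60 at 200, which follows from the limits themselves. Scaling or other added constants gave 78 to 137, with 110 to 116 of the 116 among them, or 78 with an added constant of 64. Limma called 0 members between the genotypes under all 17 alternatives run, with 0 to 3 at an unadjusted p under 0.05 and a smallest adjusted p of 0.999. Counts above 0 came only without wild type 1 (2 members), wild type 2 (1) or mutant 1 (3), arrays that the rule used. These counts have no share over all probe sets tested beside them. With the replicate number as a block 0 passed, 0 had an unadjusted p under 0.05, and no call changed. With 1 array left out the members' median genotype difference ran from -0.25 to 0.26, above 0 without wild type 1, wild type 3 or mutant 1 and below 0 without the others. For the 4 arrays that the rule used, the direction follows from the choice of members. Without wild type 3 the median was 0.0027, and without mutant 3 it was -0.057. The named members' differences with 1 array left out ranged over HRGP1 (0.065 to 1.01), AT3G45730 (-1.14 to 0.070), AT2G25460 (0.13 to 0.56) and Prx37 (-0.69 to 0.018). Wild type 3 was above the midpoint in 79 members, and in 85 to 89 under the 3 scalings. On the intensity scale, where a midpoint lies higher than on a log scale, wild type 3 was above it in 46. No share over all nuclear genes was computed on the intensity scale. The median of mutant 3 minus wild type 3 was 0.055, and -0.026 with quantile normalization, -0.017 with median and -0.023 with 75th-percentile centring. Dim genes are limited by the background, with 395 to 785 values per array below 0.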
